A study of Bos taurus with 8 samples.

Results

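The genes described here encode enzymes of mitochondrial beta-oxidation, the pathway that shortens fatty acids inside mitochondria and yields acetyl-CoA and reduced cofactors. The list held 10 genes: ACADS, ACADM, ACADVL, HADHA, HADHB, HADH, ECHS1, DECR1, ACAA2 and ETFDH. Members were found by the RefSeq transcript given for each array probe, without use of any measured value. This matched 6 probes of 5 genes: ACADM, ACADVL, DECR1 and ACAA2 with 1 probe each, and HADHA with 2. All 6 probes passed the filter, with signal well above background in 16 of 16 channel readings. They stand among 6693 named genes with a kept probe. No probe matched ACADS, HADHB, HADH, ECHS1 or ETFDH through its accession, and those 5 genes are not analysed here.

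Total RNA of the semitendinosus, a hind limb muscle, was measured in 12 bulls aged 15 months, 4 each of Hereford, Holstein-Friesian and Limousin, with no treatment named in the labels. Hereford and Holstein-Friesian stood for well-marbled beef and Limousin for lean beef, and the comparison asks how muscle expression differs between them. Each of 8 arrays carried 1 marbled bull and 1 Limousin bull in different dyes, with Hereford in Cy5 on slide 1 and Holstein-Friesian in Cy3 on slide 2. The same 4 Limousin bulls were used on both slides, so the comparisons share their controls. Slide, dye and breed therefore go together and cannot be told apart within either breed's ratio.

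In beta-oxidation, an acyl-CoA dehydrogenase makes the first double bond, a hydratase adds water, a second dehydrogenase oxidizes the alcohol, and a thiolase cuts off acetyl-CoA. Chain length decides which dehydrogenase acts. Unsaturated fatty acids need auxiliary isomerases and a reductase before the cycle can go on. In skeletal muscle the pathway is known to supply energy at rest and in endurance work, and oxidative fibres hold more of it than glycolytic fibres.

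Of the 5 measured enzymes, DECR1 passed the test, in Holstein-Friesian against Limousin. Its signal after normalization was 1.45-fold that of Limousin. The call is 1 of 5 members, against 6.45% of all 17061 tested probes. In Hereford against Limousin 0 of 5 members passed in limma, against 7.14% of all probes, and 2 of 5 had an unadjusted p under 0.05. Medians over the 5 members were 0.09 log2 in Hereford and 0.11 in Holstein-Friesian, beside all-probe medians of 0.01 and -0.01. In Hereford 3 of 5 members lay above 0, and in Holstein-Friesian 4 of 5. A call here means a Benjamini-Hochberg adjusted p under 0.05 over all kept probes, and every ratio is log2 of breed over Limousin.

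**Figure D1:**
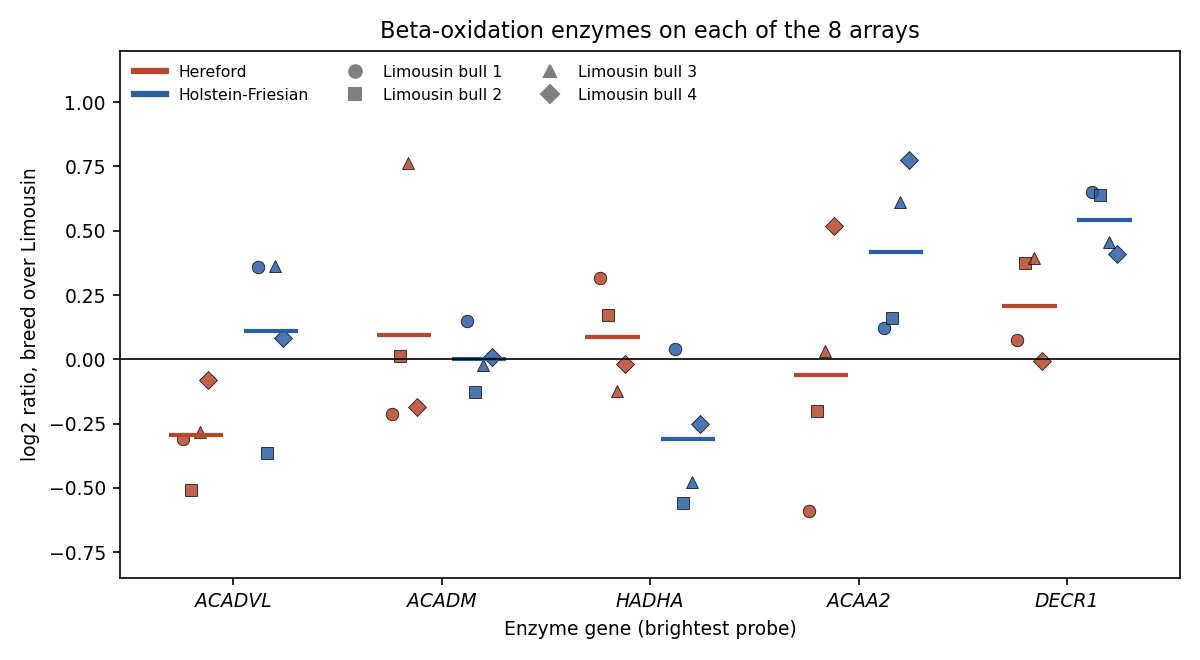
Log2 ratio of breed over Limousin (vertical axis) for the brightest probe of each measured enzyme (horizontal axis), 1 point per array. Colour gives the breed, the marker shape the Limousin bull on the array, and the short line the mean of 4 arrays. The 4 Holstein-Friesian points of DECR1 lie between 0.41 and 0.65, while the points of ACADM and ACAA2 spread widely in Hereford.

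DECR1 encodes the mitochondrial dienoyl-CoA reductase, an auxiliary enzyme that removes conjugated double bonds from polyunsaturated acyl-CoA. On the Holstein-Friesian arrays its log2 ratios were 0.65, 0.64, 0.46 and 0.41. On the Hereford arrays they were 0.07, 0.37, 0.40 and -0.01. All 4 Holstein-Friesian values lay above all 4 Hereford values, by a narrow margin and in opposite dyes. How many of all probes separate the breeds in this way was not counted. The Holstein-Friesian mean was 0.54 (SD 0.12, n = 4, 95% interval 0.34 to 0.74, limma adjusted p = 0.0136), and higher than Limousin on 4 of 4 arrays. Of all probes, 36.5% had the same sign on all 4 Holstein-Friesian arrays and 27.7% on all 4 Hereford arrays. The Hereford mean was 0.21 (SD 0.21, n = 4, limma adjusted p = 0.184).

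The direct difference between the breeds in DECR1, Hereford minus Holstein-Friesian, was -0.33, below 0 for 4 of 4 Limousin bulls. Its SD over the differences paired by bull was 0.22 (n = 4). The limma adjusted p was 0.177 in the fit without pairing and 0.0813 with the bull as a replicate block. No difference between the breeds was called for DECR1. The mean of both ratios per Limousin bull, where a dye bias common to all arrays drops out, was 0.37 (SD 0.13, n = 4, limma adjusted p = 0.0745), and above 0 for 4 of 4 bulls. With the Limousin bull as a replicate block, the DECR1 value of 0.37 had a limma adjusted p of 0.0264. In that mean of the marbled breeds 0 of 5 members passed without the block (1 of 5 at an unadjusted p under 0.05), against 0.598% of all probes, and 1 of 5 passed with it, against 5.33% of all probes.

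DECR1 was called within slide 2 alone, and with both breeds read in the same dye across slides, a fit of 4 bulls against 4 without pairing in which slide and breed cannot be told apart. From the 4 Holstein-Friesian arrays by themselves, the limma adjusted p was 0.0306. Holstein-Friesian in Cy3 set against Limousin in Cy3 across the slides gave 0.61 (limma adjusted p = 0.0269), a setting that called 4.27% of all probes. Each Limousin bull read in Cy5 over the same bull in Cy3 differed in DECR1 by a mean of 0.07 (limma adjusted p = 0.440).

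The DECR1 call was lost on leaving out any of 3 Limousin bulls with their arrays. The limma adjusted p was 0.0866 without bull 2, 0.0530 without bull 3 and 0.0598 without bull 4, at ratios of 0.51, 0.57 and 0.58. Calls over all probes fell from 1100 to 78, 275 and 127 in these fits, so most called probes shared the loss. Without bull 1 DECR1 stayed called (limma adjusted p = 0.0487), among 810 calls. With median centring in place of loess the Holstein-Friesian value turned to -0.0069 (limma adjusted p = 0.976), a setting that also moved the median of all probes to -0.20, so that DECR1 stood at 0.19 relative to it. The Holstein-Friesian channel was the dimmest, with a median net signal of 30.5 to 46.5 per array against 96.5 to 118 for Limousin on the same slide. Before normalization the net DECR1 signal was also lower in Holstein-Friesian than in Limousin on each array. It was 534 against 721, 563 against 936, 409.5 against 1124 and 482 against 978. The higher DECR1 ratio thus appears only after normalization. The part of the dimmer channel in the DECR1 result was not tested.

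**Figure D2:**
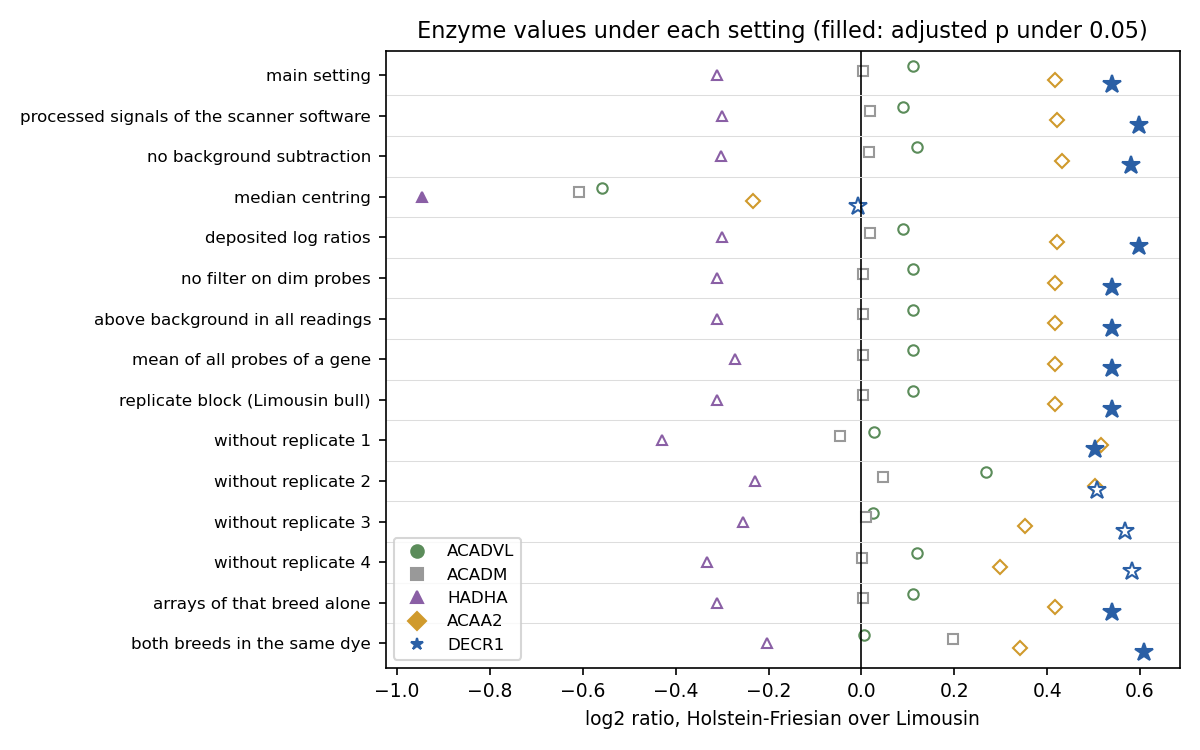
Log2 ratio of Holstein-Friesian over Limousin (horizontal axis) for each measured enzyme under each processing setting (vertical axis). Filled symbols mark a limma adjusted p under 0.05. DECR1 lies between 0.50 and 0.61 in every setting shown except median centring. There it is -0.0069, and the other 4 enzymes also lie below 0. The main value of 0.54 cannot move with probe filters, the mean of all probes, the replicate block or that breed's arrays alone. DECR1 has 1 probe, with signal in all readings. Processed signals and deposited ratios both come from the scanner software and give 0.60 each.

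Marker genes of other cell types were read on the same arrays, where 6.45% of all probes were called in Holstein-Friesian and 7.14% in Hereford. In Holstein-Friesian all 4 of 10 macrophage markers that were measured (CD68, CD14, AIF1 and C1QA) lay above Limousin, with a median of 0.55 and 0 called in limma. In Hereford all 4 lay below, with a median of -0.31. Their summed level, the log2 of the summed brightness, leans on the brightest marker. It was 11.60 to 13.21 in Holstein-Friesian, 10.66 to 11.45 in Hereford and 10.79 to 12.18 in Limousin, so that Holstein-Friesian overlapped Limousin and not Hereford. In all such ranges the marbled breeds were read in different dyes on different slides, and Limousin takes in each bull in both dyes. Fibroblast markers, 7 of 8 measured, had a Holstein-Friesian median of -0.66 with COL3A1 called at -2.53 (limma adjusted p = 0.0125), and their summed level was 14.00 to 15.02 against 14.92 to 15.78 in Limousin. Of 11 measured adipocyte markers out of 13, the median was -0.08, with CFD called higher and CIDEA called lower, and the summed level was 12.77 to 13.31 against 12.35 to 12.93. Endothelial markers (5 of 8 measured, median 0.21), nerve and Schwann cell markers (3 of 6, median 0.60) and haemoglobins (2 of 6 blood markers, median 0.12) all lay above 0 in Holstein-Friesian, with 0 called in limma. Of 11 skeletal muscle markers 6 were measured (ACTA1, CKM, DES, MB, TNNC1 and TNNC2). All 6 lay above 0 in Hereford, with a median of 0.34 and 0 called in limma, while 4 of 6 lay below 0 in Holstein-Friesian, with a median of -0.32 and MB and TNNC2 called lower. Their summed level spanned 19.72 to 19.88 in the Hereford bulls, 19.26 to 19.55 in the Holstein-Friesian bulls, and 19.13 to 19.82 in those of Limousin. The marbled breeds thus did not overlap each other and both overlapped Limousin, but breed, dye and slide cannot be told apart in this. These marker calls too were lost in fits without single bulls. COL3A1 lost its call in limma without bull 2 (0.0728) or bull 4 (0.0807). CFD lost its call without bull 2 (0.0783), bull 3 (0.0598) or bull 4 (0.114), and CIDEA without any 1 bull (0.101 to 0.178). Holstein-Friesian calls over all probes fell as well, from 1100 to 78, 275 and 127 without bulls 2, 3 and 4. The part of these cell types in the DECR1 result was not tested, and in bulk muscle fewer cells of a type and less RNA per cell cannot be told apart.

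ACADVL encodes very long-chain acyl-CoA dehydrogenase, which starts the cycle for the longest chains at the inner membrane. Its Hereford ratios were -0.31, -0.51, -0.28 and -0.08, below Limousin on 4 of 4 arrays. In Holstein-Friesian they were 0.36, -0.36, 0.36 and 0.08, which spans both sides of Limousin. The Hereford mean of -0.29 (SD 0.18, n = 4, 95% interval -0.58 to -0.01) did not pass in limma, with an adjusted p of 0.199. The Holstein-Friesian mean was 0.11 (SD 0.34, n = 4, limma adjusted p = 0.659), and the difference between the breeds was -0.40 (limma adjusted p = 0.241).

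ACADM encodes medium-chain acyl-CoA dehydrogenase, the enzyme for chains of medium length. Its Hereford ratios were -0.21, 0.01, 0.77 and -0.18, so that 1 array stood apart from the other 3. That array paired with Limousin bull 3, whose own ACADM level was the lowest of the 4 Limousin bulls in both dyes (10.65 in Cy3 and 11.05 in Cy5, against up to 11.32 and 11.36). Without bull 3 the Hereford mean went from 0.10 to -0.13, and neither value was called. The Holstein-Friesian ratios were 0.15, -0.13, -0.02 and 0.01, with a mean of 0.0026 (SD 0.11, n = 4, 95% interval -0.34 to 0.35, limma adjusted p = 0.994). That interval rests on a spread shared with the Hereford arrays, whose SD was 0.46.

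HADHA encodes the alpha subunit of the trifunctional protein, which carries the hydratase and the hydroxyacyl-CoA dehydrogenase for long chains. Its brightest probe gave Hereford ratios of 0.32, 0.17, -0.12 and -0.02. The Holstein-Friesian ratios were 0.04, -0.56, -0.48 and -0.25, below Limousin on 3 of 4 arrays. Means were 0.09 in Hereford (SD 0.20, n = 4, limma adjusted p = 0.706) and -0.31 in Holstein-Friesian (SD 0.27, n = 4, limma adjusted p = 0.140). Hereford lay above Holstein-Friesian for 4 of 4 Limousin bulls, by a mean of 0.40 (limma adjusted p = 0.200).

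The second HADHA probe ran alongside the first. It read 0.27, 0.24, -0.03 and -0.12 in Hereford and 0.10, -0.49, -0.36 and -0.18 in Holstein-Friesian. Across the 8 arrays the ratios of both probes had a Pearson r of 0.973, given as a description because they share every array. HADHA was thus the sole member measured by more than 1 probe, and the probes had the same sign on all arrays.

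ACAA2 encodes the mitochondrial thiolase that closes the cycle by releasing acetyl-CoA. Its Holstein-Friesian ratios were 0.12, 0.16, 0.61 and 0.78, above Limousin on 4 of 4 arrays. Its Hereford ratios were -0.59, -0.20, 0.03 and 0.52, on both sides of 0. The Holstein-Friesian mean of 0.42 (SD 0.33, n = 4, 95% interval 0.01 to 0.83) was not called in limma, with an adjusted p of 0.206. The Hereford mean was -0.06 (SD 0.46, n = 4, limma adjusted p = 0.887), and the difference between the breeds was -0.48 (limma adjusted p = 0.324), below 0 for 4 of 4 bulls.

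The Limousin bulls themselves differed in ACAA2. Their normalized levels were 12.93, 12.86, 12.56 and 12.08 in Cy3 for bulls 1 to 4, and 12.83, 12.87, 12.45 and 11.97 in Cy5. Each bull read at most 0.11 log2 apart on the separate slides, while the bulls spanned 0.85 on their mean levels. The Hereford bulls spanned 12.34 to 12.66 and the Holstein-Friesian bulls 12.75 to 13.06, in different dyes and on different slides. Limousin bulls thus ran from below the lowest Hereford bull to within the Holstein-Friesian range.

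The other members varied less among Limousin bulls. DECR1 spanned 0.36 log2 on the bulls' mean levels, from 9.23 to 9.59, and the readings of 1 bull in the different dyes were at most 0.15 apart. HADHA spanned 0.26, ACADM 0.49 and ACADVL 0.63, and readings of 1 bull were up to 0.28, 0.40 and 0.27 apart in these genes. For HADHA that gap exceeded the span of the bulls. The highest ACADVL level was in bull 2 (14.31 in Cy3 and 14.14 in Cy5). Between duplicate spots on 1 array, the 6 probes differed by a median of 0.02 to 0.04 log2 and at most 0.14. Duplicate spots share the array and leave out differences between slides and dyes.

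**Figure D3:**
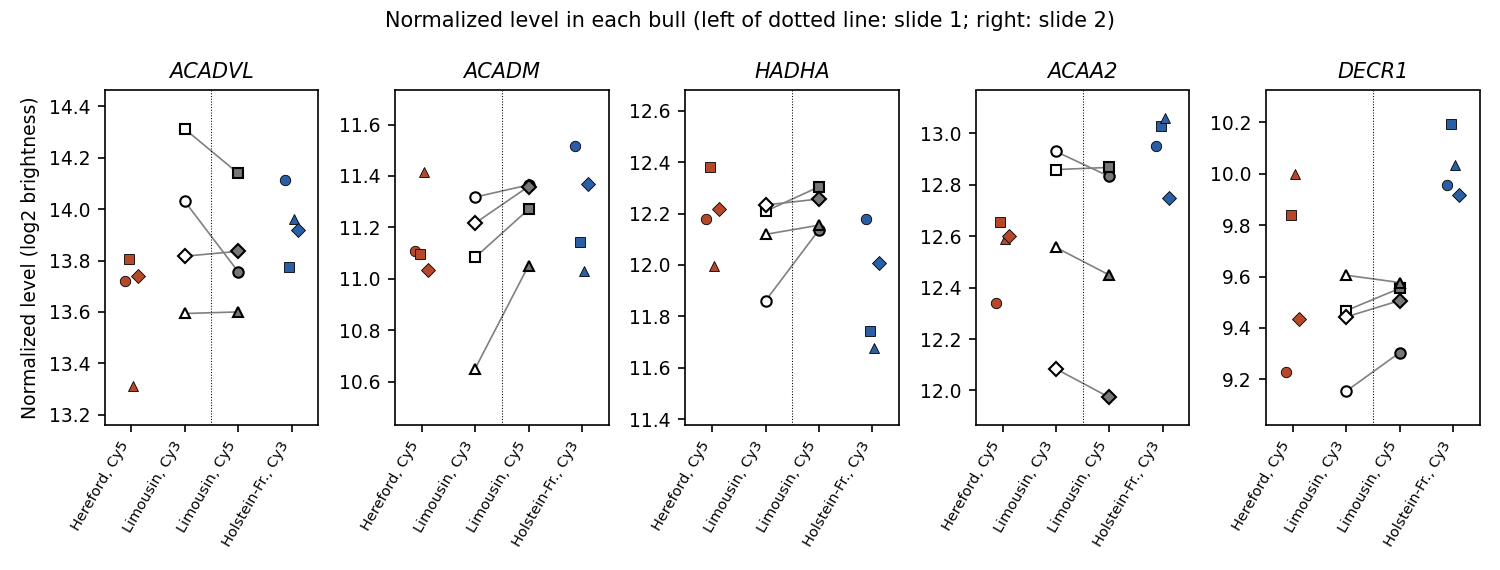
Normalized log2 brightness (vertical axis, 1.3 log2 units in each panel) of each measured enzyme in each bull, by breed and dye (horizontal axis). Grey lines join the readings of 1 Limousin bull on the separate slides, and marker shapes give the replicate number. Limousin bull 4 is lowest for ACAA2 in both dyes. The DECR1 levels of all 4 Holstein-Friesian bulls (9.92 to 10.19) lie above those of the Limousin bulls (9.15 to 9.61). How many of all probes separate these breeds in this way was not counted.

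Set directly against each other, Hereford and Holstein-Friesian differed with the same sign for all 4 Limousin bulls in 4 of 5 members: lower in Hereford for ACADVL, DECR1 and ACAA2, and higher for HADHA. Of all probes, 35.7% had the same sign for all 4 bulls. The members' median difference was -0.33, beside 0.02 over all probes. None of these differences passed: 0 of 5 members were called in limma, with 2 of 5 at an unadjusted p under 0.05, against 2.71% of all probes. A dye effect adds up in this difference, since the breeds carried opposite dyes. With both breeds read in the same dye as Limousin, the Hereford values of ACADM, HADHA and ACAA2 changed sign (-0.10, -0.02 and 0.02), all of them close to 0. The breed difference taken from those same-dye values, with no test, was -0.19 for ACADVL, -0.47 for DECR1, -0.32 for ACAA2 and -0.30 for ACADM, where the sign turned. For HADHA it was 0.18 at the brightest probe and 0.0028 at the second.

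Among the other enzymes of the mitochondrial pathway, 9 of 11 listed genes were measured. In Holstein-Friesian 1 rose and 1 fell, against 6.45% of all probes called. In Hereford 0 of 9 were called in limma, against 7.14% of all probes. The gene that rose was ECI2, an enoyl-CoA isomerase that shifts double bonds of unsaturated acids. Its Holstein-Friesian ratios were 0.80, 0.48, 0.84 and 0.49, and its mean was 0.65 (SD 0.19, n = 4, limma adjusted p = 0.0262). In Hereford ECI2 read -0.44, 0.21, 0.29 and -0.13, around a mean of -0.02. The breeds differed in ECI2 by -0.67 (limma adjusted p = 0.0872), which was not called.

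The gene that fell was ACOT2, a mitochondrial thioesterase that releases free fatty acids from acyl-CoA. Its Holstein-Friesian ratios were -1.05, -1.03, -0.57 and -0.70, with a mean of -0.84 (SD 0.24, n = 4, limma adjusted p = 0.0464). In Hereford ACOT2 averaged -0.63 (SD 0.59, limma adjusted p = 0.0979), below Limousin on 4 of 4 arrays. The Holstein-Friesian calls of both ECI2 and ACOT2 held in limma without bull 1 (adjusted p = 0.0425 and 0.0335) and were lost without bull 2 (0.0933 and 0.215), bull 3 (0.0964 and 0.0857) or bull 4 (0.112 and 0.175). ECI2 stayed above 0 with median centring (0.14).

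The step before the cycle is the activation of fatty acids and their passage across the inner membrane as carnitine esters. Of 15 listed genes 9 were measured, of which 2 fell in each breed and 0 rose. Among all probes, 7.14% were called in Hereford and 6.45% in Holstein-Friesian. The medians of this list were -0.15 in Hereford and -0.10 in Holstein-Friesian. CPT1B, the muscle carnitine palmitoyltransferase that commits long chains to oxidation, read -0.76, -0.90, -0.83 and -0.75 in Hereford. In Holstein-Friesian it read -0.19, -0.30, 0.03 and 0.06. The arrays of the breeds, read in opposite dyes, did not overlap in CPT1B. The share of all probes without such overlap was not counted. Its Hereford mean was -0.81 (SD 0.07, n = 4, limma adjusted p = 0.0038), and its difference between the breeds was called, at -0.71 (SD 0.15, n = 4, limma adjusted p = 0.0231).

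The breed difference in CPT1B kept its call in limma without bull 1 (-0.75, adjusted p = 0.0427) and lost it without bull 2 (-0.74, 0.106), bull 3 (-0.65, 0.104) or bull 4 (-0.68, 0.169). In the same dye the Hereford value of CPT1B was -0.54 and the Holstein-Friesian value -0.37, so the gap between the breeds was smaller than in opposite dyes. CPT1B was thus called in Hereford, where 0 of the 5 members were called in limma.

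CRAT, the carnitine acetyltransferase that buffers acetyl-CoA, fell in both breeds. It read -0.29, -0.66, -0.63 and -0.78 in Hereford, with a mean of -0.59 (SD 0.21, n = 4, limma adjusted p = 0.0167). In Holstein-Friesian it read -0.57, -0.55, -0.16 and -0.45, with a mean of -0.43 (SD 0.19, n = 4, limma adjusted p = 0.0406). SLC25A20, the carrier that exchanges acylcarnitine for carnitine, fell in Holstein-Friesian at -0.58, -0.80, -0.13 and -0.59, with a mean of -0.53 (SD 0.28, n = 4, limma adjusted p = 0.0372). In Hereford SLC25A20 averaged -0.27 (limma adjusted p = 0.194).

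Leaving out single bulls removed most of these calls too, while calls over all probes also fell. In Hereford they went from 1218 to 1055, 45, 352 and 30 without bulls 1 to 4 in turn. The Hereford call of CRAT held in limma without bull 1 (adjusted p = 0.0236) and was lost without bull 2 (0.103), bull 3 (0.0534) or bull 4 (0.114). Its Holstein-Friesian call was lost without any 1 bull (0.0702 to 0.199), and that of SLC25A20 held without bull 3 (0.0414) and was lost without bull 1 (0.0992), bull 2 (0.159) or bull 4 (0.174). The Hereford call of CPT1B held without each bull in turn, with adjusted p between 0.0179 and 0.0458.

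**Figure D4:**
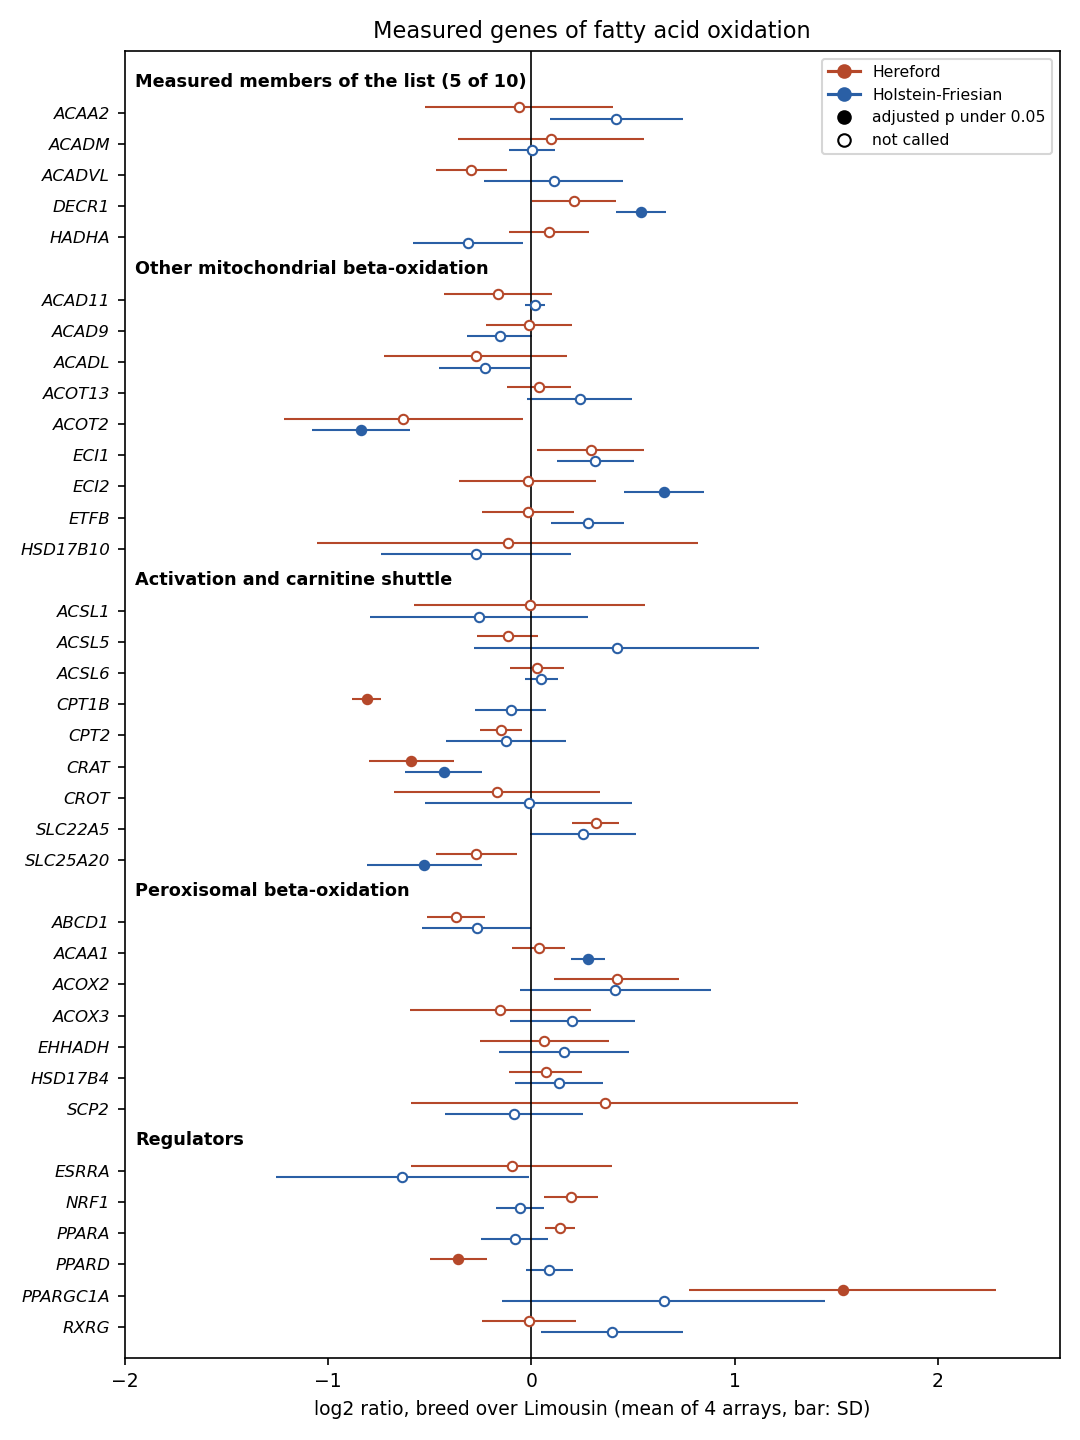
Mean log2 ratio of breed over Limousin (horizontal axis, bars: SD of 4 arrays) for measured genes of fatty acid oxidation, grouped by role (vertical axis). Filled points mark a limma adjusted p under 0.05. DECR1 and ECI2 are filled to the right of 0 in Holstein-Friesian, and CPT1B, CRAT, SLC25A20 and ACOT2 are filled to the left of 0 in at least 1 breed.

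Peroxisomes run a parallel beta-oxidation for very long and branched chains. Of 14 listed genes 7 were measured, and 1 rose, in Holstein-Friesian, against 6.45% of all probes called there. It was ACAA1, the peroxisomal thiolase, at 0.30, 0.19, 0.39 and 0.24 with a mean of 0.28 (SD 0.08, n = 4, limma adjusted p = 0.0448). That call was lost without any 1 bull (limma adjusted p between 0.118 and 0.170), and with median centring the value turned to -0.34. Acyl-CoA dehydrogenases of amino acid breakdown and ketone body enzymes were measured for 4 of 9 genes, with 0 called in either breed in limma. Those with the smallest p were ACADSB, at 0.13 in Hereford and -0.27 in Holstein-Friesian, and GCDH, at -0.15 and 0.25.

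Downstream of beta-oxidation, acetyl-CoA enters the TCA cycle and reduced cofactors feed the respiratory chain. Of 16 TCA cycle genes 12 were measured, and 0 were called in limma in either breed, with medians of -0.02 in Hereford and -0.03 in Holstein-Friesian. IDH3B, a subunit of isocitrate dehydrogenase, was closest at -0.44 in Hereford (SD 0.32, limma adjusted p = 0.0567), followed by SDHC, a succinate dehydrogenase subunit, at -0.40 (limma adjusted p = 0.0692). Of 19 respiratory chain genes 14 were measured, and 1 rose in each breed, against 7.14% of all probes called in Hereford and 6.45% in Holstein-Friesian. It was ATP5PO, a stalk subunit of ATP synthase, at 0.27 in Hereford (SD 0.13, limma adjusted p = 0.0451) and 0.38 in Holstein-Friesian (SD 0.07, limma adjusted p = 0.0166). Without bulls 1 to 4 in turn, the adjusted p of ATP5PO was 0.0667 to 0.235 in Hereford, and in Holstein-Friesian 0.0443 without bull 1 and 0.0774 to 0.0939 without bull 2, 3 or 4. Median centring turned the Holstein-Friesian value of ATP5PO to -0.28.

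Transcription of the pathway is known to be driven by PPAR receptors and their coactivator PPARGC1A. Of 14 listed regulators 6 were measured, of which 1 rose and 1 fell in Hereford and 0 were called in Holstein-Friesian in limma. The shares called over all probes were 7.14% and 6.45%. PPARGC1A read 0.48, 1.59, 2.26 and 1.80 in Hereford, with a mean of 1.53 (SD 0.76, n = 4, limma adjusted p = 0.0353). In Holstein-Friesian it read 1.40, -0.01, 1.27 and -0.06. Its Hereford call held in limma without bull 1 (0.0258) and was lost without bull 2 (0.146), bull 3 (0.113) or bull 4 (0.155). PPARD fell in Hereford by 0.36 on the log2 scale (SD 0.14, limma adjusted p = 0.0272), but its value turned to 0.14 with both breeds in the same dye, and its call was lost without bull 2 (0.0894), bull 3 (0.0997) or bull 4 (0.155).

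Muscle genes that rise with fasting through PPAR receptors, 6 of 10 measured, did not share a direction. PDK4, the kinase that restrains pyruvate use while fat is oxidized, read 2.81, 3.33, 1.75 and 2.94 in Hereford and 4.16, 4.16, 2.18 and 1.71 in Holstein-Friesian. UCP3, a mitochondrial carrier induced when fatty acid supply is high, read -1.85, -1.83, -1.61 and -1.40 in Holstein-Friesian. In Hereford UCP3 read -0.20, -1.63, -1.21 and -0.41. PDK4 rose in both breeds, at means of 2.71 (limma adjusted p = 0.0168) and 3.05 (0.0112), and UCP3 fell in Holstein-Friesian, at -1.67 (SD 0.21, limma adjusted p = 0.0085).

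Some fits without 1 bull lost these calls as well, and calls over all probes fell in the same fits. PDK4 lost its Hereford call without bull 2 (limma adjusted p = 0.0870) or bull 4 (0.0836) and its Holstein-Friesian call without bull 2 (0.0728), and UCP3 lost its call without bull 4 (-1.76, 0.0521) and without bull 3 (-1.69, just above the threshold). PLIN2, a lipid droplet coat protein, fell in Hereford by 0.77 on the log2 scale (SD 0.37, limma adjusted p = 0.0287), a call lost without bull 2 (0.0918), bull 3 (0.0910) or bull 4 (0.117). With PDK4 up and UCP3, ACOT2 and PLIN2 down, 1 of these 6 genes rose and 1 fell in Hereford, and 1 rose and 2 fell in Holstein-Friesian. Over all probes, 7.14% were called in Hereford and 6.45% in Holstein-Friesian.

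Genes of slow-twitch fibres, the oxidative type, were higher in Hereford for 8 of 8 measured genes out of 11, with a median of 1.27 and 4 called. In Holstein-Friesian 7 of 8 lay above 0, with a median of 0.87, 1 called higher and 1 lower. All-probe shares called were 7.14% in Hereford and 6.45% in Holstein-Friesian. The gene called in both breeds was ATP2A2, the slow-fibre calcium pump, at 1.61 (SD 0.11, n = 4, limma adjusted p = 0.0082) and 1.02 (limma adjusted p = 0.0259). Its Hereford call was lost without bull 2 (0.0615) or bull 4 (0.0646), and its Holstein-Friesian call without bull 2 (0.0721), bull 3 (0.116) or bull 4 (0.103). The light chain MYL3 lost its Hereford call without bull 2 (0.0627), and MYH7 and MYL2 lost theirs without bull 2 (0.172 and 0.179), bull 3 (0.147 and 0.163) or bull 4 (0.183 and 0.136). MB, the oxygen store myoglobin, fell in Holstein-Friesian by 1.02 on the log2 scale (limma adjusted p = 0.0167), a call lost without bull 2 (0.116) or bull 4 (0.0672). Of 13 fast-twitch genes 7 were measured, with a median of 0.29 in Hereford and -0.48 in Holstein-Friesian, where TNNC2 and PVALB fell. TNNC2 lost its call in limma without bull 2 (0.0671), bull 3 (0.0667) or bull 4 (0.105), and PVALB without bull 2 (0.0728). The part of fibre type in the values of the beta-oxidation enzymes was not tested.

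Within the 5 members, ratios across the 8 arrays ran from a Pearson r of -0.67 (HADHA with ACAA2) to 0.61 (ACADVL with ACAA2), given as a description because all arrays share 4 Limousin bulls. Genes whose ratios tracked the mean of the members closely, among 2450 named genes with a range of at least 1 log2, were CAT (r = 0.93) and EMCN (0.92) over the same 8 arrays. They were picked for their high r among so many genes, so these values are a description without a test. The members did not vary together, so their mean is not a profile that each of them shares. CAT encodes catalase, the peroxisomal enzyme that breaks down hydrogen peroxide, and EMCN an endothelial sialomucin. CAT read -0.82, -0.48, -0.35 and -0.46 in Hereford and 0.22, -0.48, 0.01 and -0.17 in Holstein-Friesian. The mean of the members on the same arrays was -0.14, -0.03, 0.16 and 0.05 in Hereford and 0.26, -0.05, 0.19 and 0.21 in Holstein-Friesian.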

How the data were processed

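The reading software was Agilent Feature Extraction 10.7.3.1, as the submitters' processing notes and file headers say. Spot and background brightness are deposited as intensity (median over pixels) per channel. Processed signals are deposited as intensity after background subtraction and dye normalization, per the file headers. The deposited value table gives log10 Cy5/Cy3, the same as the scanner's own ratio at 44407 of 44407 spots per array (within 1e-05 log2). Flags are as deposited, per the file headers. All value columns were mapped (0 left).

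Normexp background correction (offset 50) and loess within each array (span 0.3, controls at no weight) were run with limma 3.58.1 and statmod 1.5.0 in R 4.3.3, with the data.table package (1.17.8), jsonlite 2.0.0 and matplotlib 3.10.9. Control and outlier spots were left out and duplicate spots averaged. Of 21475 probes, 17061 had at least 4 of 16 readings well above background. Probe accessions gave symbols for 8297 probes through RefSeq names of ARS-UCD2.0, whose coordinates were not used because the array follows Btau_3.1. The brightest kept probe stood for a gene.

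All 8 arrays entered 1 limma fit (lmFit, eBayes, two-sided) with Benjamini-Hochberg adjustment over 17061 probes. For the mean of the marbled breeds, 4 values per probe were fitted, 1 per Limousin bull. The difference between the breeds was tested without pairing by bull, while its SD is that of the paired differences. Replicate numbers pair the arrays, as the labels show 1 Limousin bull per number. Deviations of same-numbered arrays correlated at 0.41, 0.27, 0.50 and 0.10, and the block correlation was 0.31. Leaving out a bull removed its arrays on both slides. Levels are channel log2 brightness after loess and Aquantile. The fits were tested on simulated data.

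Named were all members, the called genes of each other pathway list (at most 4 by p, or the 2 of smallest p where none passed) and the 3 genes most like the members' mean, of which 1 is not reported here. Other genes, among them fibre and cell type markers, were chosen after their values were seen. The members and lists were chosen with earlier results of these data known. No p-value was adjusted over the members alone.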

Additional observations from a re-analysis of the deposited data

Results flagged for a closer look

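Of 18 groups of 4 values (6 probes in each breed and in the mean of both), 2 had 1 value far from the other 3, judged by its gap as a share of the whole range; chance flags about 1 in 20 groups. Both were in the average, per Limousin bull, of its ratios on the separate slides. For ACADM the value of bull 3 was 0.372, while the other 3 bulls lay below 0, down to -0.088. For ACADVL the value of bull 2 was -0.436, while the other 3 bulls lay above 0, up to 0.041. Each of these bulls was the extreme among the Limousin bulls in both dyes, the lowest for ACADM and the highest for ACADVL.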

How the results depend on the processing

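The alternatives were the scanner's processed signals, no background subtraction, median centring, the deposited log ratios, other probe filters, the mean of all probes of a gene, the Limousin bull as a replicate block, each bull left out, each breed's arrays alone, and both breeds in the same dye. Median centring changed most. It moved the members' median to 0.33 in Hereford, -0.56 in Holstein-Friesian, -0.14 in the mean of both and 0.64 in the difference, where the all-probe medians were 0.10, -0.20, 0.00 and 0.36. It turned ACADVL (0.080) and ACAA2 (0.24) in Hereford; ACADM (-0.61), ACADVL (-0.56), DECR1 (-0.0069) and ACAA2 (-0.23) in Holstein-Friesian; ACADM (-0.14) in the mean; and ACADVL (0.64), DECR1 (0.44) and ACAA2 (0.47) in the difference. It called HADHA, at -0.95 in Holstein-Friesian (limma adjusted p = 0.0143) and 1.30 in the difference (0.0186), so that 1 member was called there. In the same dye ACADM (-0.099), HADHA (-0.020) and ACAA2 (0.016) turned in Hereford, and ACADM (-0.30) in the difference, an alternative chosen after seeing the data. With the replicate block, 1 member (DECR1) was called in the mean of both breeds, and the block changed no other member's call (DECR1 in Holstein-Friesian had a limma adjusted p of 0.0149). The cause of these changes was not tested.

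Leaving out 1 bull, the members' median ran from -0.092 to 0.12 in Hereford, 0.026 to 0.27 in Holstein-Friesian, -0.049 to 0.085 in the mean and -0.35 to -0.25 in the difference, and the count called in Holstein-Friesian from 0 to 1. Values that changed sign were ACADM (-0.13 to 0.20) and ACAA2 (-0.25 to 0.12) in Hereford, ACADM (-0.047 to 0.046) in Holstein-Friesian, ACADM (-0.059 to 0.095) and ACADVL (-0.14 to 0.022) in the mean, and ACADM (-0.14 to 0.24) in the difference. Calls over all probes without 1 bull ranged from 30 to 1055 in Hereford and from 78 to 810 in Holstein-Friesian. Calls in the mean ranged from 0 to 1, and in the difference from 0 to 457. Calls over all probes were 1218, 1100, 102 and 463 in Hereford, Holstein-Friesian, their mean and the difference. Median centring gave 315, 6678, 950 and 6219, with 87.0%, 29.0%, 23.1% and 78.1% of calls higher against 47.5%, 46.5%, 53.9% and 57.5%. Processed signals and deposited ratios gave 2157 and 2129 in Holstein-Friesian, 444 and 438 in the mean, and 974 and 979 in the difference, of which 67.6% were higher with deposited ratios. The replicate block gave 910 in the mean and 1714 in the difference, and Hereford arrays alone gave 27. In the mean, no background subtraction gave 222, no filter 42 and signal in all readings 371. With 4 bulls per breed, few arrays limit the precision throughout.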

Other observations

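The auxiliary enzymes that unsaturated fatty acids need were measured for 3 genes, grouped here after their values were seen and so without a test of the group. In Holstein-Friesian the means were 0.54 for DECR1, 0.65 for ECI2 and 0.31 for ECI1, and each gene lay above Limousin on 4 of 4 arrays. The same sign on all 4 Holstein-Friesian arrays was seen in 36.5% of all probes. ECI1, the mitochondrial enoyl-CoA isomerase, read 0.53, 0.27, 0.37 and 0.08 there and was not called (limma adjusted p = 0.129). In Hereford ECI1 read 0.43, 0.27, 0.53 and -0.07, while ECI2 lay on both sides of 0. With median centring the Holstein-Friesian values were -0.0069 for DECR1, 0.14 for ECI2 and -0.26 for ECI1.

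ETFB, the beta subunit of the flavoprotein that takes electrons from the acyl-CoA dehydrogenases, lay above Limousin on 4 of 4 Holstein-Friesian arrays, at 0.48, 0.05, 0.32 and 0.27, with a limma adjusted p of 0.141. ACADL, the long-chain acyl-CoA dehydrogenase, read -0.77, -0.42, 0.30 and -0.20 in Hereford and -0.16, -0.31, 0.04 and -0.49 in Holstein-Friesian, and was called in neither. CPT2, which returns acylcarnitine to acyl-CoA inside the mitochondrion, lay below Limousin on 4 of 4 Hereford arrays, between -0.29 and -0.05, and was not called (limma adjusted p = 0.451). Of all probes, 27.7% had the same sign on all 4 Hereford arrays.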
